A study of Mus musculus with 15 samples.

Results

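The mitochondrial ribosomal protein genes were followed through the first day of culture of primary mouse hepatocytes. Members were the genes whose probe sets carried 1 symbol beginning with Mrpl or Mrps and a number, and each gene was represented by the probe set with the largest SD over the 15 arrays. The rule found 76 of the 18193 genes with 1 symbol, 47 with large-subunit names and 29 with small-subunit names. By the number in the name, 43 belonged to classes that bacterial ribosomes also have, and 33 to classes special to mitochondria. The probe set chosen for Mrpl11 followed the background of the arrays, so 75 members were among the 12157 genes tested. The members are spread over many chromosomes, and all 76 matched RefSeq by Entrez number with their symbol unchanged.

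The study compared monolayer and aggregate culture. Hepatocytes had been isolated from male C57BL/6 mice, with no transgene or drug named in the labels. Fresh cells (t0) were the baseline. The cultured groups were harvested at 4 h or 24 h. The tissue culture dish (TCD) holds hepatocytes as a flat monolayer, and the rotating wall vessel (RWV), a slowly turning chamber, lets them gather into aggregates. Each of the 5 groups had 3 independent biological replicates per the series' design text, which makes 15 arrays. Each value is a log2 difference from the fresh median, because the deposited values had that median subtracted in every probe set. No level of a gene can be read from them, and genes are compared here by their changes alone. In bulk RNA, fewer cells of a type and less RNA per cell cannot be told apart.

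Mitochondria translate a small set of mRNAs of their own, all for core subunits of the respiratory chain and the ATP synthase, on a ribosome that differs from the one in the cytosol. Its rRNAs come from mitochondrial DNA, and all its proteins are encoded in the nucleus, made in the cytosol and imported. Many of these genes have promoters that bind NRF1, the ETS factor GABP or YY1, factors also known for the nuclear genes of the respiratory chain. Hepatocytes are rich in mitochondria, and isolated hepatocytes are known to lose liver functions in monolayer culture.

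Promoter sequences, 300 bases from 250 before the start to 50 after it, came from the RefSeq table for GRCm38.p6, which matched 67 of the 76 members. The letters GCATGCGC, a core of NRF1 binding, stood in the window of 8 members (11.9%), of 3.05% of all 27025 genes in the table and of 5.75% of the 9816 tested genes found there. The ETS core CCGGAAG stood in 25 members (37.3%), in 9.93% of all genes and in 19.3% of tested genes. The YY1 core AAGATGGC stood in 12 members (17.9%), against 3.19% and 5.12%. The E-box CACGTG stood in 7.46% of members, 8.09% of all genes and 11.7% of tested genes, and CCAAT in 38.8%, 41.1% and 42.7%. Both strands were searched, and none of these motifs contains another. A match describes letters and does not show that a factor binds.

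The 5 windows printed here were chosen after the values were seen, because their genes carry the results that follow. They are Mrps30 (chr13:118387203-118387502) and Mrps18b (chr17:35916391-35916690), which had the largest rises in the dish, and 3 genes that start back to back with a neighbour, Mrpl40 (chr16:18876588-18876887), Mrpl49 (chr19:6057706-6058005) and Mrpl18 (chr17:12916042-12916341). All 5 genes lie on the minus strand and are printed on their own strand, 5′ to 3′. Capitals mark the motifs named above on either strand: the NRF1 letters and the reversed ETS core in Mrps18b, reversed CCAAT in Mrps30, the YY1 core in Mrpl49, and the ETS core and reversed CCAAT in Mrpl18. The Mrpl40 window holds none of them.
Mrps30: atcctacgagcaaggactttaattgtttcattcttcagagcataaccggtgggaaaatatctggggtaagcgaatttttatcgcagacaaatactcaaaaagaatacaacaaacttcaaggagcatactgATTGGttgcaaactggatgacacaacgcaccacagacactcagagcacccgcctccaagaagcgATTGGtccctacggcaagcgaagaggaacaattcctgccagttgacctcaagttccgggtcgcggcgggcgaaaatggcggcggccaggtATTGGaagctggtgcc
Mrps18b: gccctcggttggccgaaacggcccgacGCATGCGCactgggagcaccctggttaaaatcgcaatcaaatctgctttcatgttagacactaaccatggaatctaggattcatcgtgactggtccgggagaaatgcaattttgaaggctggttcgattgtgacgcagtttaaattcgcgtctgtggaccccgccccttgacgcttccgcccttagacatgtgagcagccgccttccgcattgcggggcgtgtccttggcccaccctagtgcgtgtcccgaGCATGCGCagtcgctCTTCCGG
Mrpl40: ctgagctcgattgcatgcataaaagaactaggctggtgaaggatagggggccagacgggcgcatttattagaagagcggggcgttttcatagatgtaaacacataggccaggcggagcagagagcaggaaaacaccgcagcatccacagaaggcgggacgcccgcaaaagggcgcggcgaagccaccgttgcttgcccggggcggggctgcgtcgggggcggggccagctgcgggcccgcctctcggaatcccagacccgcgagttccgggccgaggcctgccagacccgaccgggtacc
Mrpl49: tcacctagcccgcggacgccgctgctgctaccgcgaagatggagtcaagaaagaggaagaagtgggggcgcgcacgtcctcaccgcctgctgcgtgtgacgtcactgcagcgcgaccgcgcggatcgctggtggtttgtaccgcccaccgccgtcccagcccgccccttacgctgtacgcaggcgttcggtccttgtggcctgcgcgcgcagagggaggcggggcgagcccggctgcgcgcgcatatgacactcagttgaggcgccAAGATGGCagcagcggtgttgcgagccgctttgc
Mrpl18: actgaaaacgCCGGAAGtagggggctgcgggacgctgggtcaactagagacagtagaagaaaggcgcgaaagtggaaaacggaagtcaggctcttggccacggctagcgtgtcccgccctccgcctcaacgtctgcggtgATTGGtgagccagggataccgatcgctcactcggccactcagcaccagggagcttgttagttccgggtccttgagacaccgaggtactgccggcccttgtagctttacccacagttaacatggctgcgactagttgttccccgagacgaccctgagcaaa

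At 24 h members were called in both directions, as were all tested genes. In the dish, 19 of 75 rose and 32 fell against fresh cells (68.0% called; 57.4% of all tested genes were called, by limma with an adjusted p below 0.05). In the vessel, 18 rose and 17 fell (46.7% called; 51.1% of all tested genes). The median member changed by -0.14 in the dish and by -0.01 in the vessel, where the median of all tested genes was 0.01 and 0.04. The middle 50% of members ran from -0.56 to 0.31 in the dish and from -0.33 to 0.30 in the vessel, a narrower range than that of all tested genes, which ran from -0.47 to 0.96 and from -0.33 to 0.83. Without fresh replicate 3 the median member in the vessel was 0.05. At least 2-fold, 6 members were higher and 8 lower in the dish, and 5 higher and 6 lower in the vessel. Of the 12157 tested genes, 2860 were at least 2-fold higher and 1909 lower in the dish, and 2469 higher and 1480 lower in the vessel, so a 2-fold change was less frequent among the members; this difference was not tested. Both comparisons share the fresh arrays, so their values are set side by side for each member and their overlap is not read as a result.

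The split of higher and lower calls depended on the scaling. Centring each array on 6 reference genes (Tbp, Hprt, Ywhaz, Polr2a, Sdha and Gusb) shifted the median of all tested genes to -0.97 in the dish and -0.68 in the vessel at 24 h. The members then counted 4 higher and 64 lower in the dish, and 5 higher and 57 lower in the vessel. The reference genes themselves moved: in the dish at 24 h Ywhaz (2.05), Polr2a (2.05), Gusb (1.56) and Hprt (1.11) rose and Sdha fell by 1.38. Relative to the median of all tested genes, the median member lay at -0.15 in the dish and at -0.04 in the vessel. Centring shifts every gene of an array alike, so this distance is by construction the same under either scaling. Mrpl19, Mrpl45, Mrps18b and Mrps30 were called higher at 24 h in both vessels under both.

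**Figure D1:**
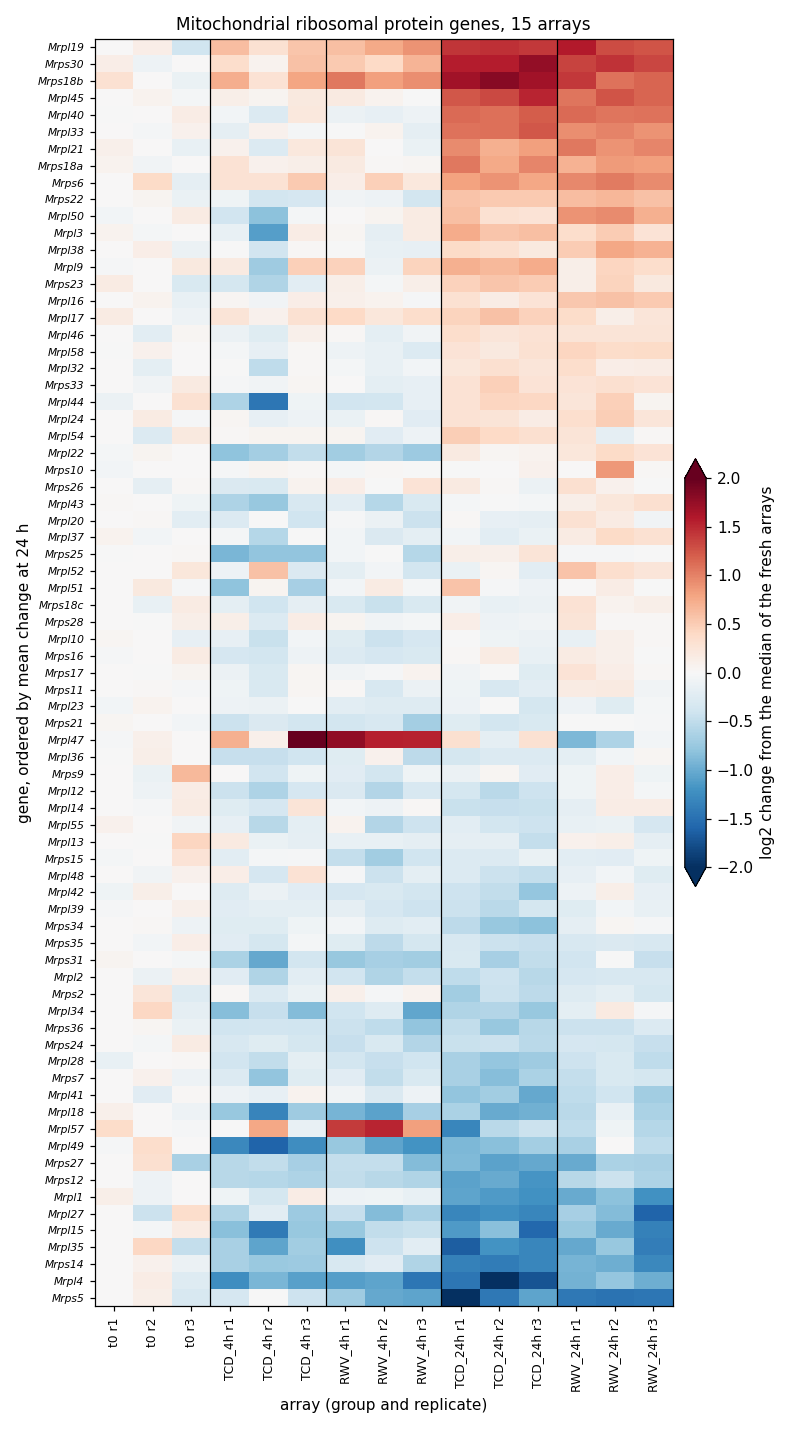
Log2 change from the fresh median (colour, clipped at 2 and -2) for the 75 tested members (rows, ordered by their mean change at 24 h) on the 15 arrays (columns, grouped by condition). The rows at the top rose and those at the bottom fell at 24 h in both vessels. Mrpl47 and Mrpl57 were high in the RWV at 4 h.

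Among the risers, Mrps18b, a small-subunit protein related to bacterial S18, was the highest in the dish. Its 24 h dish arrays read 1.69, 1.82 and 1.69 and its vessel arrays 1.42, 1.09 and 1.17, against 0.30, 0.00 and -0.14 in fresh cells. All 6 cultured arrays lay above all fresh ones. The change was 1.68 ± 0.154 (SE; 3.20-fold, adjusted p = 1.28e-06) in the dish and 1.17 ± 0.154 (2.26-fold, adjusted p = 4.01e-05) in the vessel. Mrps18b already stood higher at 4 h, by 0.55 in the dish and 0.88 in the vessel.

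Mrps30, which despite its name sits in the large subunit, read 1.58, 1.58 and 1.76 in the 24 h dish and 1.36, 1.44 and 1.33 in the vessel, against 0.14, -0.10 and 0.00 in fresh cells. It rose by 1.62 ± 0.132 in the dish (adjusted p = 4.41e-07) and by 1.36 ± 0.132 in the vessel (adjusted p = 3.13e-06). Mrpl45, which ties the ribosome to the inner membrane, read 1.24, 1.33 and 1.52 in the dish and 1.07, 1.27 and 1.17 in the vessel at 24 h. Its change was 1.35 ± 0.0978 in the dish and 1.16 ± 0.0978 in the vessel, and at 4 h its values of 0.11 and 0.07 were not called. Between 4 h and 24 h it rose by 1.24 in the dish and by 1.09 in the vessel.

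Mrpl19, a large-subunit protein with a bacterial counterpart, read 1.44, 1.45 and 1.41 in the 24 h dish and 1.58, 1.31 and 1.26 in the vessel, against 0.00, 0.14 and -0.40 in fresh cells. It rose by 1.52 ± 0.147 and 1.47 ± 0.147, and its 2 other probe sets off the background were called higher in both vessels too, by 1.52 and 0.64 in the dish. Probe sets that followed the background are left out wherever other probe sets of a gene are given. Mrpl40, of the central protuberance of the large subunit, rose by 1.10 and 1.05. Mrpl33, a small large-subunit protein, rose by 1.12 and 0.92. Mrps18a, another large-subunit protein with a small-subunit name, rose by 0.93 and 0.79. Neither Mrpl33 nor Mrpl40 was called at 4 h, where their changes lay between -0.18 and -0.06.

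The other members higher in both vessels at 24 h were Mrps6 (0.76 in the dish and 0.92 in the vessel), Mrpl21 (0.84 and 1.0), Mrps22 (0.57 and 0.65), Mrpl46, Mrpl16, Mrps33 and Mrpl58, the last a release factor built into the ribosome. Mrpl21 is uncertain: of its other probe sets 1 stayed near 0 and another read -0.34 in the dish and was called lower in the vessel, at -0.50. Calls in the dish and not in the vessel went to 5 further members: Mrpl54, Mrpl17, Mrps23, Mrpl3 and Mrpl9, with dish changes from 0.43 to 0.64. Another 4 were called in the vessel and not in the dish: Mrpl22, Mrpl24, Mrpl38 and Mrpl50, with 0.29 to 0.81. None of these 9 genes differed between the vessels at 24 h in the direct test, so no difference between dish and vessel is shown for them.

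Mrpl4, which lines the peptide exit tunnel, fell furthest in the dish. Its 24 h dish arrays read -1.45, -2.01 and -1.72, and its vessel arrays -0.95, -0.78 and -0.97, against 0.00, 0.15 and -0.26 in fresh cells. It fell by 1.69 on the log2 scale in the dish (SE 0.165, 3.23-fold, adjusted p = 2.2e-06) and by 0.86 in the vessel (adjusted p = 0.000777). Mrps14, a small-subunit protein of the ribosome's head, read -1.36, -1.40 and -1.31 in the dish and -0.93, -0.97 and -1.29 in the vessel. Its changes were -1.35 ± 0.12 and -1.05 ± 0.12, while the 2 other probe sets of the gene read -0.39 (called) and -0.03 (not called) in the dish.

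Mrps5, another small-subunit protein with a bacterial counterpart, read -2.14, -1.42 and -1.05 in the 24 h dish and -1.42, -1.48 and -1.45 in the vessel, with a wider spread in the dish. It fell by 1.47 in the dish and by 1.38 in the vessel (SE 0.23; adjusted p = 0.000124 and 0.000262), and 2 of its 3 other probe sets off the background were called lower too. Mrpl27, which lies near the peptidyl transferase centre, fell by 1.25 and 1.02, and its other probe set by 1.07 and 0.73. Mrps12, of the decoding centre, fell by 1.06 and 0.51. Mrpl15 fell by 1.22 and 1.08; 5 of its 6 other probe sets off the background were called lower in the dish and none in the vessel.

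Mrpl35 (-1.36 in the dish and -1.03 in the vessel) and Mrpl1 (-1.13 and -1.01) are uncertain, because another probe set of each was called in the opposite direction, at 0.48 and 0.58 in the dish. The other members lower in both vessels were Mrpl49, Mrps27, Mrpl41, Mrps7, Mrpl28, Mrps24, Mrpl2, Mrps35 and Mrps36, from -0.92 to -0.43 in the dish. Mrps36, now known as a subunit of the ketoglutarate dehydrogenase complex rather than of the ribosome, changed by -0.57 and -0.34. A further 15 members were called lower in the dish and not in the vessel. They were Mrpl57, Mrpl18, Mrpl34, Mrps34, Mrpl42, Mrps2, Mrpl14, Mrps31, Mrpl39, Mrpl12, Mrpl13, Mrpl48, Mrpl36, Mrps15 and Mrps21, from -0.88 to -0.30 in the dish. Of these 15, Mrps34, Mrpl42, Mrpl14 and Mrpl12 also differed between the vessels in the direct test given further on.

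The remaining 20 members passed the test in neither vessel at 24 h: Mrpl10, Mrpl20, Mrpl23, Mrpl32, Mrpl37, Mrpl43, Mrpl44, Mrpl47, Mrpl51, Mrpl52, Mrpl55, Mrps9, Mrps10, Mrps11, Mrps16, Mrps17, Mrps18c, Mrps25, Mrps26 and Mrps28. Their dish changes lay between -0.33 and 0.32. Mrpl32, whose maturation by a mitochondrial protease precedes ribosome assembly, read 0.32 and 0.28. Mrps18c, like Mrps18a and Mrps18b a relative of bacterial S18, read -0.11 and 0.15.

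The subunits and the evolutionary classes were all called in both directions. Large-subunit names counted 12 higher and 19 lower of 46 in the dish at 24 h, and small-subunit names 7 higher and 13 lower of 29. This made 67.4% and 69.0% called, against 57.4% of all tested genes. Members with a bacterial counterpart counted 10 higher and 20 lower of 42, with a median of -0.24. Members special to mitochondria counted 9 higher and 12 lower of 33, with a median of -0.02. The shares called were 71.4% with a bacterial counterpart and 63.6% special to mitochondria. All 8 members at least 2-fold lower had a bacterial counterpart, and no member special to mitochondria fell 2-fold. Of these 8, Mrpl1 and Mrpl35 had another probe set called higher, and the other probe sets of Mrps14 changed less. These counts are descriptions, and no difference between the classes was tested.

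For 36 genes more than 1 probe set lay off the background. In the dish at 24 h their probe sets had 1 sign in 21 genes and were all called the same way in 9. Probe sets of 1 gene were called in opposite directions in 2 genes in the dish (Mrpl1 and Mrpl35) and in 4 in the vessel (Mrpl1, Mrpl11, Mrpl21 and Mrpl35). Since the rule takes the most variable probe set, the value given for such a gene is often the largest of several.

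**Figure D2:**
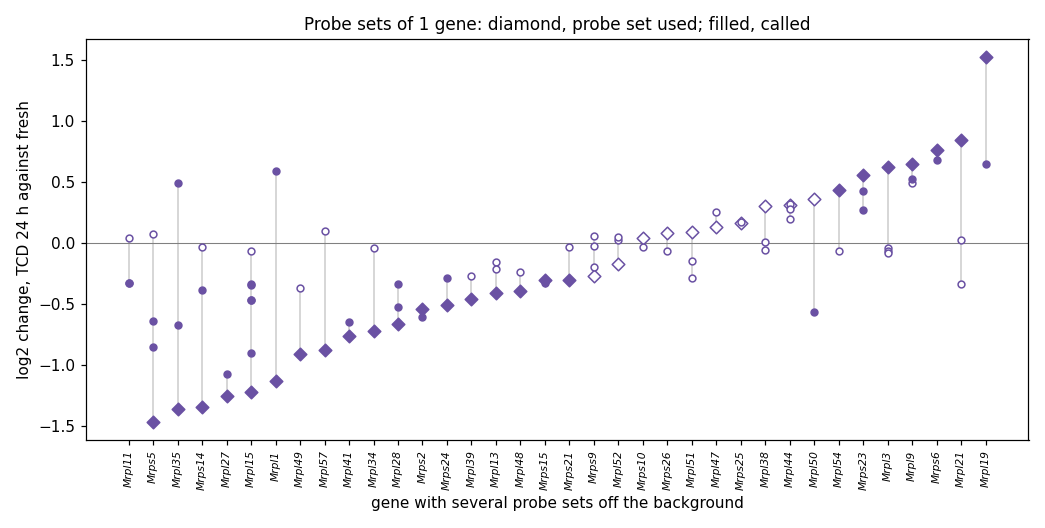
Log2 change in the 24 h dish against fresh cells (vertical axis) for each probe set of the 36 genes with several probe sets off the background (horizontal axis). Diamonds mark the probe set used, circles the others and filled symbols a call. Mrpl11 has no diamond because its chosen probe set followed the background, and the filled symbols of Mrpl1 and Mrpl35 lie on both sides of 0.

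Against fresh cells at 24 h, the mitochondrial ribosomal proteins followed neither the cytosolic ribosome nor the respiratory chain. Cytosolic ribosomal protein genes and close relatives (47 tested) counted 43 higher and none lower in the dish at 24 h, and 42 and none in the vessel, with a median of 0.76 in both. Nuclear genes for respiratory chain and ATP synthase subunits (73 tested), the enzymes that the mitochondrial ribosome helps to build, counted 3 higher and 58 lower in the dish (median -0.63) and 3 and 56 in the vessel (median -0.48). The members' medians of -0.14 and -0.01 lay between these. Of all tested genes 33.6% were higher and 23.8% lower in the dish, and 31.5% and 19.6% in the vessel. Array by array, the median of the members was -0.07, -0.14 and -0.18 in the 24 h dish. It was at least 0.72 for the cytosolic proteins and at most -0.56 for the respiratory chain on the same arrays. With reference genes as the baseline the 3 medians were -0.22, -1.12 and -1.62 in the dish. That baseline shifts every gene of an array by the same amount, so it cannot change their order. The cytosolic proteins then counted 7 higher and 18 lower, and the respiratory chain 1 and 71. In the vessel the medians on that baseline were 0.04, -0.72 and -1.20. At 4 h on the deposited values the members lay near the respiratory chain. Their medians were -0.18 in the dish and -0.21 in the vessel, and those of the respiratory chain -0.11 and -0.19.

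**Figure D3:**
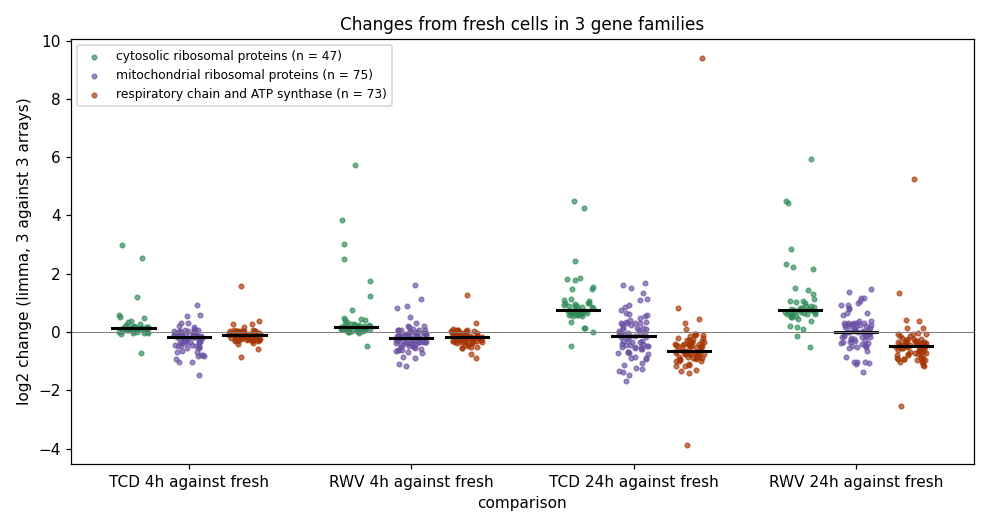
Log2 change from fresh cells (vertical axis, limma, 3 against 3 arrays) for cytosolic ribosomal proteins, mitochondrial ribosomal proteins and respiratory chain and ATP synthase subunits in the 4 cultured groups (horizontal axis). Each point is a gene and each bar the median. At 24 h the bars separate to 0.76, -0.14 and -0.63 in the dish, whereas at 4 h they lie between -0.21 and 0.17.

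At 4 h the calls went mostly down. In the dish 2 members rose and 21 fell (30.7% called; 26.1% of all tested genes), with a median of -0.18. In the vessel 6 rose and 21 fell (36% called; 30.1% of all tested genes), with a median of -0.21. The medians of all tested genes were -0.06 and -0.07. By direction, 9.78% of all tested genes rose and 16.3% fell in the dish, and 15.5% and 14.7% in the vessel. Mrpl19 and Mrps18b rose in each; these comparisons too share the fresh arrays. With reference genes as the baseline 1 was higher and 35 lower in the dish, and 3 and 63 in the vessel. The array of dish replicate 2 at 4 h stood apart, with a hybridisation control median of 1.08 against -0.73 to 0.18 on the other 14 arrays and a limma array weight of 0.168. Without it 20 members were called in the dish at 4 h, 4 higher and 16 lower, and the median was -0.18.

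Mrpl49, a large-subunit protein special to mitochondria, fell furthest of the members in the dish at 4 h; in the vessel only Mrpl4 (-1.17) fell further. It read -1.29, -1.61 and -1.24 in the dish and -0.75, -1.05 and -1.20 in the vessel, against -0.02, 0.35 and 0.00 in fresh cells. It fell by 1.49 in the dish (SE 0.185, adjusted p = 8.99e-05) and by 1.11 in the vessel (adjusted p = 0.000719). By 24 h it had come back by 0.57 in the dish and 0.62 in the vessel, and it remained below fresh cells at -0.92 and -0.49.

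Mrpl18, of the central protuberance, fell by 0.93 in the dish and by 0.89 in the vessel at 4 h. Mrpl22, which borders the exit tunnel, read -0.81, -0.67 and -0.49 in the dish and -0.69, -0.59 and -0.72 in the vessel at 4 h. It then read 0.18, 0.04 and 0.08 in the dish and 0.23, 0.38 and 0.28 in the vessel at 24 h. Its course of a fall and a return was thus present in both vessels, with a rise of 0.76 in the dish and 0.96 in the vessel between the times. In the dish 6 members were called lower at 4 h and higher from then to 24 h (Mrpl22, Mrpl43, Mrpl44, Mrpl49, Mrps16 and Mrps25). In the vessel 7 were (Mrpl12, Mrpl22, Mrpl49, Mrps15, Mrps16, Mrps18c and Mrps21). Both calls use the same 4 h arrays, so a low 4 h value enters both and these counts are not read as a result. The share of all tested genes with this course was not counted. In the dish at 4 h Mrpl44 read -0.61, -1.44 and -0.08, lowest on replicate 2, the array that stood apart. Its adjusted p there was 0.0464 (limma), and that of Mrps16 was 0.0498.

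Mrpl47 and Mrpl57 stood out in the vessel at 4 h by their rise over fresh cells. Mrpl47 read 1.78, 1.56 and 1.54 there and -0.89, -0.62 and -0.06 at 24 h, a rise of 1.60 over fresh cells and a fall of 2.15 between the times. Mrpl57 read 1.40, 1.52 and 0.82 at 4 h and -0.51, -0.09 and -0.57 at 24 h. Each has another probe set off the background that was called in neither vessel at either time, with changes between -0.12 and 0.28, so each course rests on 1 probe set. The dish arrays of Mrpl47 at 4 h read 0.71, 0.10 and 2.09 and overlapped those of the vessel. Those of Mrpl57 read -0.01, 0.78 and -0.15, and Mrpl57 was 1.04 higher in the vessel. Neither gene was called between dish and vessel at 4 h.

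From 4 h to 24 h most calls were upward. In the dish 29 members rose and 14 fell (57.3% called; 56.6% of all tested genes), with a median of 0.07 that ran from 0.04 without dish replicate 2 at 4 h to 0.13 without dish replicate 1 at 4 h. In the vessel 27 rose and 5 fell (42.7% called; 42.6% of all tested genes), with a median of 0.29, where all tested genes had 0.05. Both shares lay within 1 percentage point of those of all tested genes. By direction, 38.7% of members rose and 18.7% fell in the dish, near the 36.9% and 19.7% of all tested genes. In the vessel 36% of members rose and 6.67% fell, against 27.0% and 15.5% of all tested genes. These differences were not tested. With reference genes as the baseline the dish had 5 higher and 54 lower and the vessel 13 and 9.

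The direct comparison tested whether these genes differed between the vessels at the same time. Dish and vessel differ in rotation as well as in aggregation, and the parts of these cannot be told apart. At 4 h 1 member was higher and 1 lower in the vessel (2.67% called; 6.41% of all tested genes), with a median of -0.00 that ran from -0.06 without dish replicate 2 to 0.05 without dish replicate 3. Mrps25, a small-subunit protein special to mitochondria, read -0.05, -0.01 and -0.57 in the vessel and -0.92, -0.78 and -0.80 in the dish, without overlap. It differed by 0.62 ± 0.128 (adjusted p = 0.0143), while its other probe set off the background read -0.23 and was not called, and the call was lost without vessel replicate 1 or 2. Mrps15, which has a bacterial counterpart, was lower in the vessel by 0.43 (SE 0.113, adjusted p = 0.0409), a call lost without any 1 array but dish replicate 1. A fit on the 6 arrays compared made no call among the members.

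At 24 h 7 members were higher and 1 lower in the vessel (10.7% called; 15.5% of all tested genes). The median member was 0.17 higher, with 56 of 75 above 0, where the median of all tested genes was -0.00 and 5993 of 12157 were above 0. The respiratory chain and ATP synthase genes leaned the same way, with 54 of 73 above 0 and a median of 0.07. With reference genes as the baseline, which moved the median of all tested genes to 0.27, 32 members were higher and none lower. Leaving out 1 array gave between 4 and 9 calls. The 4 members still called without dish replicate 2, without dish replicate 3 or without vessel replicate 2 were Mrpl4, Mrpl42, Mrps12 and Mrps34, which kept their call in every alternative run. Mrps12 and Mrps34 have 1 probe set each, with names ending in _s_at and _a_at. The alternative that leaves out names ending in _s_at, _x_at or _a_at gave no value for them.

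Mrpl4 was 0.83 ± 0.165 higher in the vessel (adjusted p = 0.00471). Its 24 h arrays, given above, did not overlap, and at 4 h the vessels did not differ in the test (-0.12, adjusted p = 0.747). Mrps34, a small-subunit protein special to mitochondria, read -0.18, 0.04 and -0.03 in the vessel and -0.52, -0.75 and -0.81 in the dish. The difference was 0.64 ± 0.106 (adjusted p = 0.00142), and the vessel arrays overlapped the fresh ones at 0.00, 0.03 and -0.10. Mrps12 read -0.56, -0.43 and -0.62 in the vessel and -1.07, -1.01 and -1.18 in the dish, a difference of 0.55 ± 0.0843 (adjusted p = 0.000915). At 4 h it had read -0.49 to -0.60 in the vessel, close to the vessel's later values.

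Mrpl42, a large-subunit protein special to mitochondria, read -0.11, 0.12 and -0.16 in the vessel and -0.42, -0.49 and -0.77 in the dish, a difference of 0.51 ± 0.112 (adjusted p = 0.00805). Mrpl14, at the face between the subunits, differed by 0.49, Mrpl12, of the stalk that recruits elongation factors, by 0.44, and Mrpl16, a large-subunit core protein, by 0.31 (adjusted p = 0.0387, 0.0227 and 0.0414). Of these 7, 6 had fallen in the dish against fresh cells, and Mrpl16 had risen in both vessels. Mrps18b was the member that was lower in the vessel, by 0.50 (adjusted p = 0.0451), a call lost likewise without any array but vessel replicate 1. The call of Mrpl16 was lost without any 1 of the 6 arrays, that of Mrpl14 without any of them but vessel replicate 1, and that of Mrpl12 without dish replicate 2, dish replicate 3 or vessel replicate 2.

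**Figure D4:**
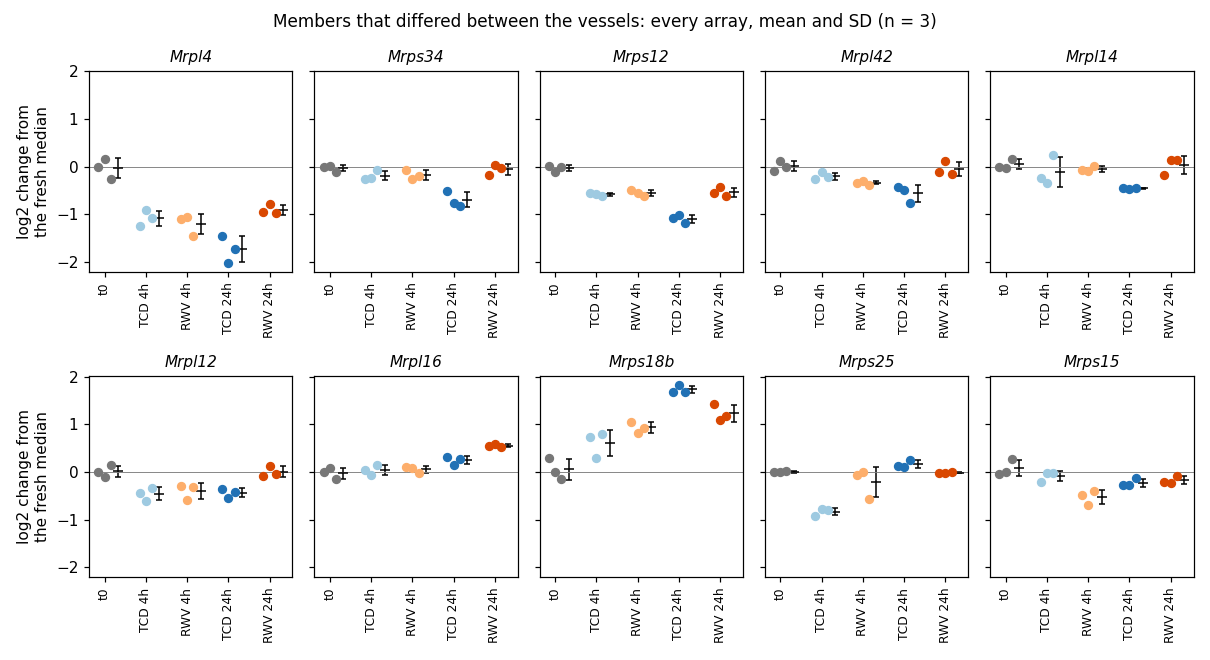
Log2 change from the fresh median (vertical axis) for the 10 members called between the vessels at 4 h or 24 h, 1 panel each, with every array as a point and the mean and SD (n = 3) beside each group. In the first 6 panels the 24 h vessel points lie above the 24 h dish points and nearer to 0, while in Mrps18b they lie below.

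The difference between the vessels at 24 h was tested against that at 4 h. Of the members 7 passed (9.33% called; 12.9% of all tested genes), 4 with a higher value of vessel minus dish at 24 h than at 4 h and 3 with a lower one. Mrpl4 gained 0.95, Mrpl42 0.65, Mrps34 0.62 and Mrps12 0.52, while Mrps18b (-0.84), Mrps25 (-0.80) and Mrps23 (-0.71) went the other way. In Mrps18b vessel minus dish was 0.33 at 4 h and -0.50 at 24 h. With reference genes as the baseline 47 were higher and none lower, as the median of all tested genes moved to 0.53. The Mrps18b call was lost without any 1 of 5 arrays and the Mrps23 call without any 1 of 9. That of Mrpl4 was lost without vessel replicate 2 at 24 h, with an adjusted p of 0.0530. The Mrps25 call was lost in 2 of 22 alternative runs. Over these 22 runs its value ran from -0.98 to -0.24, and its adjusted p reached 0.401 (limma).

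Other measures moved with the groups. The gap between the Actb probe sets for the 3′ and 5′ ends, a sign of RNA integrity or of labelling, lay at -0.05 (SD 0.0520) in fresh cells, -0.44 (SD 0.00884) in the 24 h dish and -0.23 (SD 0.0242) in the vessel, relative to the fresh median. All 3 cholangiocyte markers tested were higher in the dish than in fresh cells at 24 h, Sox9 by 4.65, Krt19 by 4.24 and Epcam by 1.32, and Krt19 and Epcam were lower in the vessel than in the dish. Of 7 hepatocyte markers 6 fell in both vessels at 24 h, among them Hnf4a by 2.39 in the dish and 1.02 in the vessel, and Alb changed by -0.06 and -0.16. Of 6 macrophage and Kupffer cell markers Cd68 was higher by 9.99 in the dish and by 8.78 in the vessel, Marco was higher in the vessel by 1.74, and Adgre1, Clec4f, Cd5l and Csf1r were not called. Of 3 endothelial markers 1 was higher and 1 lower in the dish and 2 lower in the vessel, of 4 stellate cell markers 1 was higher in the dish, and the lymphocyte marker Ptprc was not called. No level, sum or zero of a marker can be read from these values. The part of these measures in the members' changes was not tested.

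Related genes of the mitochondrial translation system were described from lists of general knowledge. Of 15 translation factors and helpers 1 rose and 8 fell in the dish at 24 h, and 2 rose and 4 fell in the vessel. The shares called were 60% and 40%, where all tested genes had 57.4% and 51.1%. Mtif3, an initiation factor, fell by 1.72 in the dish and by 0.98 in the vessel and was higher in the vessel by 0.74 (adjusted p = 0.00549). Lrpprc, which stabilises mitochondrial mRNAs, fell by 0.94 in the dish, read -0.23 in the vessel and differed by 0.71 (adjusted p = 0.00158). Oxa1l, the insertase that receives newly made chains, differed by 0.57 and read -0.28 and 0.29 against fresh cells. In all, 14 of the 15 were higher in the vessel than in the dish at 24 h with a median of 0.37, and 3 passed the test (20%; 15.5% of all tested genes).

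Of 26 genes for assembly and rRNA modification 8 rose and 10 fell in the dish, and 6 rose and 5 fell in the vessel. This made 69.2% and 42.3% called, against 57.4% and 51.1% of all tested genes. Tfb1m, a methyltransferase of the small-subunit rRNA, fell by 2.53 and 1.84. Rpusd4, a pseudouridine synthase, rose by 1.51 and 1.15, and Fastkd2, an RNA-binding protein of the large subunit's assembly, by 1.07 and 1.0. Ddx28, a helicase, rose by 0.83 and 1.41 and was higher in the vessel at both times, by 1.43 at 4 h and 0.58 at 24 h. Of 4 ribosomal proteins with other names, Chchd1 rose by 0.30 and 0.34, Gadd45gip1 rose in the vessel by 0.40, and Dap3 and Ptcd3 were not called.

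Of 18 genes for mitochondrial DNA transcription and replication 6 rose and 5 fell in the dish and 5 rose and 4 fell in the vessel. The shares called, 61.1% and 50%, lay near the 57.4% and 51.1% of all tested genes. Trmt10c, which matures mitochondrial transcripts, rose by 2.0 and 0.84, and Polg, the DNA polymerase, by 1.27 and 1.01. Polg2, its accessory subunit, fell by 2.31 and 1.31, Hsd17b10 by 1.88 and 1.89, and Tfam, which packages the DNA, by 0.94 and 1.48. Subunits and partners of 1 complex, such as Polg and Polg2 or Trmt10c and Hsd17b10, thus moved in opposite directions.

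All 11 regulators of mitochondrial biogenesis tested were called in the dish at 24 h, 8 higher and 3 lower, and 10 in the vessel, 8 higher and 2 lower. Of all tested genes 57.4% were called in the dish and 51.1% in the vessel. Pprc1, a coactivator of NRF1, rose by 3.30 and 3.13, Nrf1 by 2.21 and 1.74, Gabpb1 by 1.78 and 0.80, Yy1 by 1.20 and 0.99 and Gabpa by 1.07 and 0.93. The coactivators Ppargc1a and Ppargc1b went the other way: Ppargc1a fell by 4.00 and 3.68, and Ppargc1b fell by 4.04 and 1.83. The rise of Nrf1 and Pprc1 was already called at 4 h in both vessels, at 1.48 and 1.70 for Nrf1. Among members with a window in the promoter table, the ETS core stood in 7 of the 13 higher in both vessels. It stood in 3 of the 14 lower in both, and the YY1 core stood in 1 and 6. The NRF1 letters stood in 2 and 0, CCAAT in 3 and 5 and the E-box in 0 and 1. Mrpl21 is among the higher with the ETS core and Mrpl35 among the lower with the YY1 core, both uncertain by their other probe sets. These groups were formed from the values, so the counts are given with no test.

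Many members share their start region with another gene. Among the 67 members with a promoter window, 25 (37.3%) had a head-to-head neighbour, a gene on the other strand starting within 1000 bases upstream, against 12.3% of all genes in the table and 19.2% of the tested ones. The 25 include Mrpl46 and Mrps11, which face each other across 42 bases; Mrpl46 rose in both vessels and Mrps11 was not called. Of 21 pairs with both genes tested, both were called in the dish at 24 h in 7, in the same direction in 4 and in opposite directions in 3. In the vessel it was 6 pairs, 4 in the same direction and 2 in opposite directions. Over all 21 pairs, called or not, both genes had the same sign in 13 in the dish and in 14 in the vessel. Of all tested genes 57.4% were called in the dish and 51.1% in the vessel. Pairs of other genes were not counted, so these pair counts are descriptions and were not tested.

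Mrpl49 and Fau start 192 bases apart, so both starts lie in the window printed above. Mrpl49 fell by 0.92 in the dish and 0.49 in the vessel, whereas Fau, which encodes a protein of the cytosolic ribosome, rose by 0.70 and 0.51. Mrpl18 fell by 0.87 in the dish while Tcp1, a subunit of the cytosolic chaperonin 238 bases away, rose by 1.31, and in the vessel Mrpl18 was not called. Mrpl40 and Hira, a histone chaperone 113 bases away, rose together, Hira by 0.69 and 0.64. Mrps12 and Sars2, the mitochondrial seryl-tRNA synthetase, both fell in the dish, Sars2 by 0.45.

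**Figure D5:**
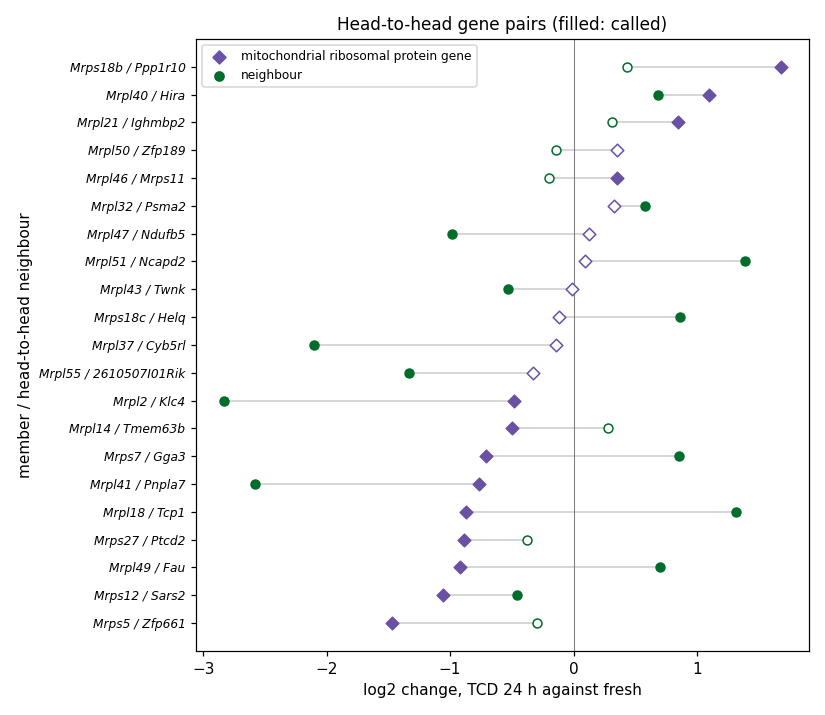
Log2 change in the 24 h dish against fresh cells (horizontal axis) for the 21 head-to-head pairs with both genes tested (rows). Diamonds are the mitochondrial ribosomal protein genes (in Mrpl46 / Mrps11 the diamond is Mrpl46), circles the neighbours, and filled symbols were called. Mrpl18, Mrpl49 and Mrps7 lie left of 0 with a filled neighbour on the right, while both symbols of Mrpl40 and Hira lie on the right.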

How the data were processed

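Total RNA was profiled with a biotin label on 15 Affymetrix arrays, 5 groups of 3. The deposited values are log2 values that the authors made with GCRMA, per the submitters' processing notes (version not given in the sources used here), and the fresh median of every probe set was 0 within 1e-06, so they are changes from fresh cells. Of 45101 probe sets, 34945 had 1 gene symbol, 932 several and 9160 none, and 64 were controls. The probe set of largest SD was taken per gene. It was then left out if its SD was below 0.5 and its correlation above 0.8 with the per-array median over those 20% of probe sets that varied least. This left 12157 genes.

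A moderated linear model over all 15 arrays was fitted in limma 3.58.1 (R 4.3.3, 10 residual degrees of freedom), and p-values were adjusted by Benjamini-Hochberg over all genes of each comparison. A call is an adjusted p below 0.05. The fit was tested on simulated data. The number of arrays limits the precision, and 3 against 3 arrays cannot go below an exact permutation p of 0.1 for 1 gene.

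Arrays of the same replicate number resembled each other: all 15 arrays lay nearest to arrays of their own number. The labels do not say what a number marks. Only 5 of the 10 pairs of groups had every correlation above 0.1, so the rule set for a block was not met. The fit therefore has no block, and counts with a block are given in the closing section.

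In each comparison the text names up to 6 called members each way by size, the 2 largest each way between vessels, members with a known role of their own and up to 3 called genes each way per pathway list. Members named beyond that were chosen after their values were seen. The members and lists were chosen with earlier results of these data known. Alternatives changed the background filter, the choice of probe set, the centring, weights, the block and the arrays used. The background filter before the choice of probe set was added after seeing the data. Figures were drawn with matplotlib 3.10.9.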

Additional observations from a re-analysis of the deposited data

Results flagged for a closer look

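Some genes differed between the vessels by another amount at 24 h than at 4 h (limma, adjusted p below 0.05 for the difference of the RWV minus TCD differences, log2 scale, 24 h minus 4 h). Among the mitochondrial ribosomal proteins this value was 0.95 for Mrpl4, 0.65 for Mrpl42, 0.62 for Mrps34 and 0.52 for Mrps12, and -0.84 for Mrps18b, -0.80 for Mrps25 and -0.71 for Mrps23. Among genes for assembly and for mitochondrial translation it was -1.02 for Mrm1, -0.84 for Ddx28 and 0.85 for Lrpprc. Among genes for mitochondrial DNA expression it was -1.44 for Trmt10c, -0.92 for Tfam and -0.67 for Tfb2m. Among the regulators it was -2.26 for Gabpb1, -1.57 for Pprc1, -1.10 for Hcfc1 and -0.71 for Sp1.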

How the results depend on the processing

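Of 87 values of named genes, 55 kept their direction and call under every alternative that gave a value. Centring on reference genes moved most counts: the members called became 32 (RWV against TCD, 24 h), 47 (24 h against 4 h difference of the vessels), 36 (TCD, 4 h against fresh), 66 (RWV, 4 h against fresh) and 62 (RWV, 24 h against fresh). The median member then lay at -0.27 and 0.43 between the vessels at 4 h and 24 h, 0.70 for the difference of these, -0.38, -0.68, -1.12 and -0.72 against fresh cells (TCD and RWV at 4 h, TCD and RWV at 24 h), and -0.71 and 0.045 from 4 h to 24 h in TCD and RWV. Between the vessels at 4 h the 2 calls became 8 with no background filter, 1 with probe sets averaged per gene, 5 with array weights, 1 with centring on the median of tested genes and 0 in a fit of the arrays compared, which called 113 of all genes by limma. At 24 h the 8 calls became 22 with array weights and 14 in a fit of the arrays compared. The 7 calls of the difference between times became 11 with no background filter and 19 with array weights. TCD at 4 h against fresh gave 10 calls in a fit of the arrays compared. The median of RWV at 4 h was -0.15 with centring on the median of tested genes, and the median of RWV from 4 h to 24 h was 0.21 with the mean of probe sets. Mrpl17 in RWV at 4 h read -0.16 with reference genes. Without probe sets whose names end in _s_at, _x_at or _a_at, Mrpl21 read -0.50 in RWV at 24 h against fresh and -0.29 from 4 h to 24 h.

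Leaving out 1 array gave 0 to 3 calls between the vessels at 4 h, 4 to 9 at 24 h, 5 to 10 for the difference of these, 17 to 23 and 21 to 26 against fresh at 4 h (TCD, RWV), 43 to 44 and 27 to 32 at 24 h, and 34 to 39 and 26 to 31 between the times. The median ran from -0.24 to -0.16 in RWV at 4 h and from -0.019 to 0.051 in RWV at 24 h. With the replicate number as a block the calls were 3 between the vessels at 4 h, 8 at 24 h, 8 for their difference, 23 and 27 against fresh at 4 h, 52 and 34 at 24 h, and 42 and 35 between the times. The cause of a change was not tested.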
